A study of Homo sapiens with 4 samples.

Results

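The 10 genes described here encode the catalytic core of Polycomb repressive complex 2 (EZH2, EZH1, SUZ12 and EED), the machinery that copies DNA methylation at replication (DNMT1, UHRF1 and HELLS), the enzymes that add new DNA methylation (DNMT3A and DNMT3B) and TET1, which starts its removal. They were chosen by name, and all 10 were found among the 60651 gene IDs of the count table. All 10 also passed the minimum used below for the genes they are set beside, a mean of at least 5 CPM (counts scaled to a library total of 1e6) over the 4 libraries, which 9573 genes with a symbol met. The cells were CHP134, an established human neuroblastoma line from an adrenal tumour with amplified MYCN, profiled by full-length single-cell RNA sequencing on 1 nanowell chip. The 4 groups were cells given DMSO at 0.04% (the vehicle), 13cRA at 5 µM, doxazosin at 10 µM, or 13cRA at 5 µM with doxazosin at 10 µM (the combination), each for 24 h. 13cRA is 13-cis retinoic acid (isotretinoin), a retinoid used to differentiate neuroblastoma cells, and doxazosin blocks alpha-1 adrenergic receptors. All groups are the same unmodified line, so the data speak for that line alone. Each treatment had 1 sample, whose cells do not count as replicates, so no difference below carries a replicate error or a test.

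Polycomb repressive complex 2 places the repressive histone mark H3K27me3. EZH2 and EZH1 are its alternative methyltransferases, EZH2 typical of dividing cells and EZH1 of resting ones, and SUZ12 and EED are the core subunits without which neither is active. DNA methylation is kept through cell division by DNMT1, which UHRF1 brings to hemimethylated CpG sites behind the replication fork. HELLS is a nucleosome remodeller that opens packed chromatin to the methyltransferases. DNMT3A and DNMT3B methylate DNA that was unmethylated before, and TET1 oxidises 5-methylcytosine. In neuroblastoma, EZH2 is best known for silencing differentiation and tumour suppressor genes such as CASZ1, CLU and NGFR.

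Several of these genes are textbook targets of the E2F factors, which switch on replication genes. Their promoters were therefore searched, from 250 bases before to 50 bases after each RefSeq start on GRCh38.p14, for the E2F words TTTCCCGC, TTTGGCGC, TTTCGCGC and TTTGCCGC on both strands. At least 1 word was present for 6 of the 10 genes, against 3.99% of 27305 genes in the table of promoters and 7.31% of the 7716 with a mean of at least 5 CPM. The windows for EZH2, DNMT1, UHRF1 and HELLS, the genes most related to the S phase score below, and for SUZ12 and EZH1 are printed 5′ to 3′ on the gene's own strand, with the matched word in capitals and 15 bases on either side.
EZH2, chr7:148884268-148884305, minus strand: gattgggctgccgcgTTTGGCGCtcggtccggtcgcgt
DNMT1, chr19:10194933-10194970, minus strand: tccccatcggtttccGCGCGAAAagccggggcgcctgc
UHRF1, chr19:4909472-4909509, plus strand: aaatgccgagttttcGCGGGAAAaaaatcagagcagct
HELLS, chr10:94545765-94545802, plus strand: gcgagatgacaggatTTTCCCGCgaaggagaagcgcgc
HELLS, chr10:94545697-94545734, plus strand: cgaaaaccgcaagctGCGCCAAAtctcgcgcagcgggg
SUZ12, chr17:31936803-31936840, plus strand: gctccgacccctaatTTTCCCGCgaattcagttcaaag
EZH1, chr17:42745133-42745170, minus strand: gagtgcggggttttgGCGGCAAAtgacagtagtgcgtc
Counted from the start base as 1 with no position 0, the word began at 2 in EZH2, -2 in DNMT1, -14 in UHRF1, -8 and -76 in HELLS, -189 in SUZ12 and -115 in EZH1. A further UHRF1 start held another word at -160. The words in EZH2, SUZ12 and the nearer HELLS site read forwards, and the other words printed are reverse complements. No word was found in these windows for EED, DNMT3A, DNMT3B or TET1. The CCAAT box, searched as CCAAT on both strands, was present for 7 of the 10 genes, against 39.7% of the 27305 genes and 44.7% of the 7716. The windows of the 10 genes had a median GC content of 71.3%, against 58.7% over all 35116 windows, and the part of base composition in the matches was not tested. A match is a description of these letters and not evidence that a factor binds there.

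The kept cells, with at least 500 genes and at most 25% mitochondrially encoded counts, numbered 353 for DMSO, 318 for 13cRA, 239 for doxazosin and 287 for the combination, and their summed counts lay between 22636509 (13cRA) and 72192743 (combination). Levels below are CPM of these sums, and differences are log2((CPM + 1)/(CPM + 1)) of 2 libraries. The 13cRA library stood apart. Its cells had a median of 59200.5 counts against 122615 to 221558 in the other libraries, its median mitochondrially encoded share was 13.2% against 10.1% to 10.6%, and at an equal 34000 counts per cell its median was 3895 genes against 4679.5 to 4771. TMM and DESeq2 scaling moved the median difference of all genes between 13cRA and DMSO from -0.02 to -0.34 and -0.31, so directions that rest on that library are also read against all genes. Comparisons of the combination with doxazosin alone do not use it. The neuroblastoma markers MYCN (759 to 1168 CPM), HAND2 and GATA3 were present in every library, while TH and DBH, enzymes of catecholamine synthesis, were at 0.18 CPM or less. Of 12 such markers 10 reached a mean of 5 CPM. For 13cRA against DMSO, 3 of these were higher past 1.5-fold (all genes 14.4%) and 2 lower (13.2%). The lower ones were ISL1 (54.4 CPM in DMSO, 11.9 CPM in 13cRA, 49.3 CPM in doxazosin and 26.0 CPM in the combination) and GATA2 (13.4, 6.58, 11.1 and 2.92 CPM). Of 29 markers of Schwann cells, fibroblasts, leukocytes, endothelium and epithelium, 2 reached a mean of 5 CPM: THY1, which neurons also express, and CLDN5 (0.54 CPM in DMSO, 19.8 CPM in 13cRA, 0.71 CPM in doxazosin and 11.1 CPM in the combination). The other endothelial markers PECAM1, CDH5, KDR and VWF stayed at 1.19 CPM or less. Per library, the summed markers came to 0.79 to 10.3 CPM for Schwann cells, 73.4 to 86.5 CPM for fibroblasts (mostly THY1), 0.48 to 1.13 CPM for leukocytes, 1.31 to 22.8 CPM for endothelium and 1.14 to 2.16 CPM for epithelium, and NKG7 was at 0 everywhere.

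Per kilobase of annotated exon, EZH2 was the most abundant of the 10 transcripts in DMSO (20.8 CPM per kb), followed by DNMT1 (14.5), SUZ12 (8.37), HELLS (8.05), DNMT3A (6.96), UHRF1 (6.28), EED (5.58), TET1 (3.69), EZH1 (2.53) and DNMT3B (1.65). Exon lengths are those of GENCODE 29 over all transcripts of a gene, so the order is approximate where isoforms differ. In the combination DNMT1 (12.6 CPM per kb) was above EZH2 (11.6), and DNMT3B (1.80) and EZH1 (2.09) were again the lowest. Intervals of a level are exact 95% Poisson intervals of the summed count and cover counting error only, since amplified reads that carry no molecular identifier can repeat the same molecule. Summed over the 10 genes, the level was 587 CPM in DMSO, 585 CPM in 13cRA, 563 CPM in doxazosin and 479 CPM in the combination. The highest library exceeded the lowest by 1.2-fold (DNMT1) to 2.22-fold (DNMT3B), and 7 of the 10 ratios were under the median of all genes, 1.55-fold. EZH1, EZH2 and DNMT3B were above it, at percentiles 57.0, 68.1 and 84.1. All genes were not matched for level, and 7 of 10 is too few to set the genes apart.

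**Figure D1:**
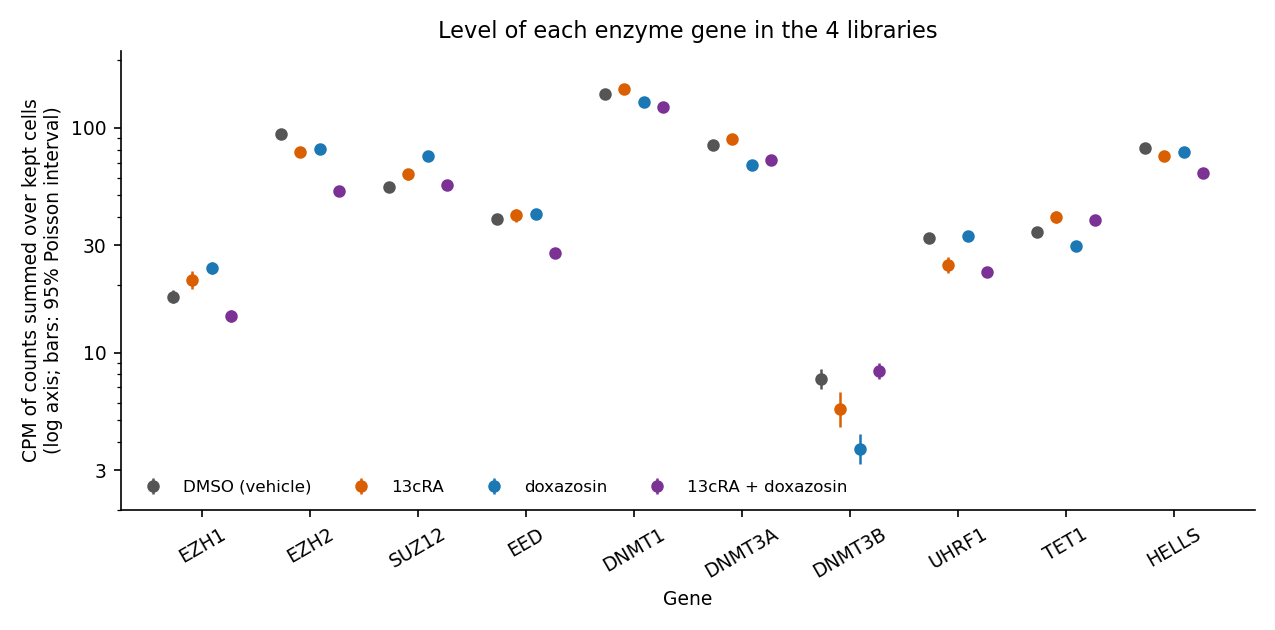
Level of each of the 10 genes in the 4 libraries, as CPM of counts summed over kept cells on a log axis. Points are single libraries and bars are exact 95% Poisson intervals, which cover counting error only. EZH2 runs from 94.0 CPM in DMSO to 52.5 CPM in the combination, and DNMT3B is the lowest gene in every library.

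EZH2 (ENSG00000106462.11, chr7:148807383-148884321, minus strand; this and the other gene positions are from GENCODE 29 on GRCh38) showed the largest shortfall of the 10 genes against DMSO in the combination. Its level was 94.0 CPM in DMSO (95% Poisson interval 91.3 to 96.7), 77.7 CPM in 13cRA (74.1 to 81.4), 80.8 CPM in doxazosin (78.2 to 83.4) and 52.5 CPM in the combination (50.8 to 54.2). The library with both drugs was thus below each of the other 3, and its interval did not reach theirs, while those of the single-drug libraries overlapped. The log2 difference from DMSO was -0.27 with 13cRA, -0.22 with doxazosin and -0.83 with both, and the last lay at percentile 2.75 of all genes. As a ratio of CPM the combination held 0.558 of the DMSO level (counting interval 0.535 to 0.583). Adding 13cRA to doxazosin went with a log2 difference of -0.61, and adding doxazosin to 13cRA with -0.56. The combination was below DMSO in all 13 alternative settings of scaling, cell filter, depth, phase and top cell, from -1.03 to -0.45, and past 1.5-fold in 10 of them. The value nearest to 0 came from cells called G2M. Here and below, not every alternative could change a sign. Dropping the minimum for all genes repeats the main value of each gene, and a pseudocount of 5 CPM cannot turn its direction.

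EZH1 (ENSG00000108799.13, chr17:42700275-42745049, minus strand) was low in every library. Its level was 17.7 CPM in DMSO (16.5 to 18.9), 21.0 CPM in 13cRA (19.2 to 23.0), 23.8 CPM in doxazosin (22.4 to 25.3) and 14.6 CPM in the combination (13.7 to 15.5). A single cell held 34.0% of the EZH1 counts of the doxazosin library. With the top cell of each library left out the levels were 17.1, 18.5, 15.8 and 13.9 CPM, in the same order, so doxazosin then stood below DMSO instead of above it. The log2 difference of the combination from doxazosin, -0.67 over all kept cells, was then -0.18, and that of doxazosin from DMSO went from 0.41 to -0.11.

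SUZ12 (ENSG00000178691.11, chr17:31937018-32001045, plus strand), the scaffold of the complex, did not share the shortfall of EZH2 against DMSO. Its level was 54.8 CPM in DMSO (52.7 to 56.9), 62.0 CPM in 13cRA (58.8 to 65.4), 74.8 CPM in doxazosin (72.3 to 77.3) and 55.5 CPM in the combination (53.8 to 57.2). The doxazosin library was the highest, and DMSO and the combination had overlapping intervals. Its log2 difference from DMSO was 0.44 with doxazosin, at percentile 93.1 of all genes and positive in all 13 alternative settings, 0.18 with 13cRA and 0.02 with both. The log2 difference of the combination from doxazosin was -0.42, negative in all 13 alternatives. A single cell held 15.6% of the SUZ12 counts of the doxazosin library. Without the top cell of each library the levels were 53.9 CPM in DMSO, 58.7 CPM in 13cRA, 63.9 CPM in doxazosin and 53.8 CPM in the combination. Doxazosin thus remained the highest, by a smaller margin. The value for 13cRA against DMSO turned negative under TMM and DESeq2 scaling, and so did that of the combination from DMSO.

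EED (ENSG00000074266.22, chr11:86244544-86278813, plus strand), the subunit that reads the finished mark, was lowest in the combination. Its level was 39.1 CPM in DMSO (37.4 to 40.9), 40.9 CPM in 13cRA (38.3 to 43.6), 41.3 CPM in doxazosin (39.5 to 43.2) and 27.8 CPM in the combination (26.6 to 29). The intervals of the first 3 libraries overlapped and that of the combination lay below them. The log2 difference of the combination was -0.48 from DMSO, -0.56 from doxazosin and -0.54 from 13cRA, each short of 1.5-fold. Against doxazosin and against 13cRA all 13 alternatives kept the sign, and against DMSO 12 of 13 did, the exception being 0.14 in cells called S. A single cell held 20% of the EED counts of the 13cRA library. The log2 difference of 13cRA from DMSO, 0.06 over all kept cells, was -0.19 without the top cells (32.8 CPM in 13cRA and 37.4 CPM in DMSO), -0.27 under TMM and -0.23 under DESeq2 scaling.

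Ratios of 2 genes within a library need no scaling between libraries. Per length, EZH2 exceeded SUZ12 by 2.48-fold in DMSO (2.37 to 2.61), 1.81-fold in 13cRA (1.69 to 1.95), 1.56-fold in doxazosin (1.49 to 1.64) and 1.37-fold in the combination (1.31 to 1.43). EZH2 was thus highest relative to SUZ12 in vehicle cells and lowest with both drugs, and these intervals did not overlap between DMSO and any treated library. The ratio of EZH2 to EED was 3.73 in DMSO and 2.93 to 3.03 in the treated libraries. That of EZH2 to EZH1 was 8.20 in DMSO and 5.24 to 5.71 in the treated libraries, or 8.21 and 4.94 to 6.93 without each gene's top cell. In every treated library the 3 ratios were below the DMSO values, also without the top cells.

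DNMT1 (ENSG00000130816.17, chr19:10133345-10231286, minus strand), the maintenance methyltransferase, was the steadiest of the 10 genes. Its level was 142 CPM in DMSO (139 to 145), 149 CPM in 13cRA (144 to 154), 130.0 CPM in doxazosin (127 to 133) and 124 CPM in the combination (121 to 127). Both libraries with doxazosin were below both without it, an order that TMM and DESeq2 scaling did not keep. Log2 differences from DMSO were 0.07 with 13cRA, -0.13 with doxazosin and -0.19 with both, none past 1.5-fold, and the first turned negative under TMM and DESeq2 scaling.

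UHRF1 (ENSG00000276043.5, chr19:4903080-4962154, plus strand), which recruits DNMT1, was lower in both libraries with 13cRA. Its level was 32.3 CPM in DMSO (30.7 to 33.9), 24.6 CPM in 13cRA (22.6 to 26.7), 32.9 CPM in doxazosin (31.3 to 34.6) and 22.7 CPM in the combination (21.6 to 23.9). The intervals of DMSO and doxazosin overlapped each other, as did those of 13cRA and the combination, and the sets did not meet. The log2 difference was -0.38 for 13cRA against DMSO and -0.52 for the combination against doxazosin, 2 comparisons that share no library. The second was negative in all 13 alternatives and the first in 11. Per length, DNMT1 exceeded UHRF1 by 2.31-fold in DMSO and 2.07-fold in doxazosin, and by 3.18-fold in 13cRA and 2.86-fold in the combination.

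HELLS (ENSG00000119969.15, chr10:94501434-94613905, plus strand) was also lower in both libraries with 13cRA. Its level was 81.7 CPM in DMSO (79.1 to 84.3), 74.8 CPM in 13cRA (71.3 to 78.4), 78.1 CPM in doxazosin (75.6 to 80.7) and 63.2 CPM in the combination (61.4 to 65.1). The combination was the lowest, and the intervals of 13cRA and doxazosin overlapped, but the order of 13cRA and the combination turned under TMM (62.8 and 66.1 CPM) and DESeq2 (64.2 and 64.3 CPM) scaling, and the sign of their difference held in 9 of 13 alternatives. Log2 differences were -0.13 for 13cRA against DMSO and -0.30 for the combination against doxazosin. A single cell held 19.7% of the HELLS counts of the 13cRA library. Without the top cell of each library the levels were 79.8 CPM in DMSO, 60.8 CPM in 13cRA, 76.1 CPM in doxazosin and 62.1 CPM in the combination, and the log2 difference of 13cRA from DMSO was -0.39.

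DNMT3A (ENSG00000119772.17, chr2:25227855-25342590, minus strand) was the main de novo methyltransferase in these cells. Its level was 83.7 CPM in DMSO (81.1 to 86.3), 89.3 CPM in 13cRA (85.4 to 93.3), 68.1 CPM in doxazosin (65.7 to 70.5) and 71.9 CPM in the combination (69.9 to 73.9). Both libraries with doxazosin were below both without it, an order kept under DESeq2 but not TMM scaling. The log2 difference was -0.29 for doxazosin against DMSO and -0.31 for the combination against 13cRA, and each kept its sign in 12 of 13 alternatives.

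DNMT3B (ENSG00000088305.18, chr20:32762385-32809356, plus strand) was close to the minimum. Its level was 7.64 CPM in DMSO (6.88 to 8.46), 5.61 CPM in 13cRA (4.68 to 6.68), 3.75 CPM in doxazosin (3.21 to 4.35) and 8.31 CPM in the combination (7.66 to 9.0), from 368, 127, 173 and 600 counts. Doxazosin alone was the lowest, and DMSO and the combination overlapped. Its log2 difference was -0.86 for doxazosin against DMSO and 0.97 for the combination against doxazosin. In the combination a single cell held 28.3% of the counts. Without the top cell of each library the levels were 7.02, 4.52, 3.26 and 6.02 CPM, and among cells of 34000 to 120000 counts they were 6.61, 6.47, 6.40 and 6.27 CPM, a log2 difference of the combination from doxazosin of 0.72 and -0.03.

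TET1 (ENSG00000138336.9, chr10:68560656-68694482, plus strand), which oxidises methylated cytosine, was higher in both libraries with 13cRA, though not under TMM or DESeq2 scaling. Its level was 34.3 CPM in DMSO (32.6 to 36.0), 40.2 CPM in 13cRA (37.6 to 42.9), 29.8 CPM in doxazosin (28.2 to 31.4) and 38.8 CPM in the combination (37.4 to 40.3). The intervals of 13cRA and the combination overlapped and lay above those of DMSO and doxazosin. The log2 difference was 0.22 for 13cRA against DMSO, which turned negative under TMM and DESeq2 scaling, and 0.37 for the combination against doxazosin, which kept its sign in 12 of 13 alternatives.

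Few of the 10 genes passed 1.5-fold in any comparison, and the shares of all genes that did are given beside them. For 13cRA against DMSO, 0 were higher (all genes 14.4%) and 0 lower (13.2%). For doxazosin against DMSO, 0 were higher (3.43%) and 1 lower (3.99%), DNMT3B. For the combination against DMSO, 0 were higher (7.41%) and 1 lower (7.46%), EZH2. For the combination against doxazosin, 1 was higher (8.32%), DNMT3B, and 2 were lower (6.39%), EZH1 and EZH2. For the combination against 13cRA, 0 were higher (12.8%) and 0 lower (14.2%). Counts of 0, 1 or 2 of 10 are too small to set apart from these shares. The EZH1 call also leaned on 1 cell of the doxazosin library. Without the top cells EZH1 was at 15.8 CPM in doxazosin and 13.9 CPM in the combination, short of 1.5-fold. Under TMM scaling 3 of the 10 were lower with 13cRA than with DMSO (EZH2, DNMT3B and UHRF1), and the calls over all genes were 659 higher and 3079 lower in place of 1377 and 1267. For the combination against 13cRA they were 2709 higher and 575 lower in place of 1222 and 1358. DESeq2 scaling gave 716 and 2817, and 2343 and 711, for these comparisons, and for the combination against doxazosin 611 higher and 863 lower in place of 796 and 612. In that comparison 4 of the 10 genes were lower under DESeq2 scaling (EZH1, EZH2, EED and UHRF1), against 9.01% of all genes, and 3 under TMM scaling (EZH1, EZH2 and EED), against 7.42%. The median log2 difference of the 10 genes was 0.06 for 13cRA against DMSO, -0.09 for doxazosin against DMSO, -0.24 for the combination against DMSO, -0.36 for the combination against doxazosin and -0.25 for the combination against 13cRA, where all genes had medians of -0.02, -0.02, -0.02, -0.01 and -0.01. In the comparison of the combination with 13cRA 9 of the 10 lay below the median of all genes, the exception being DNMT3B.

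**Figure D2:**
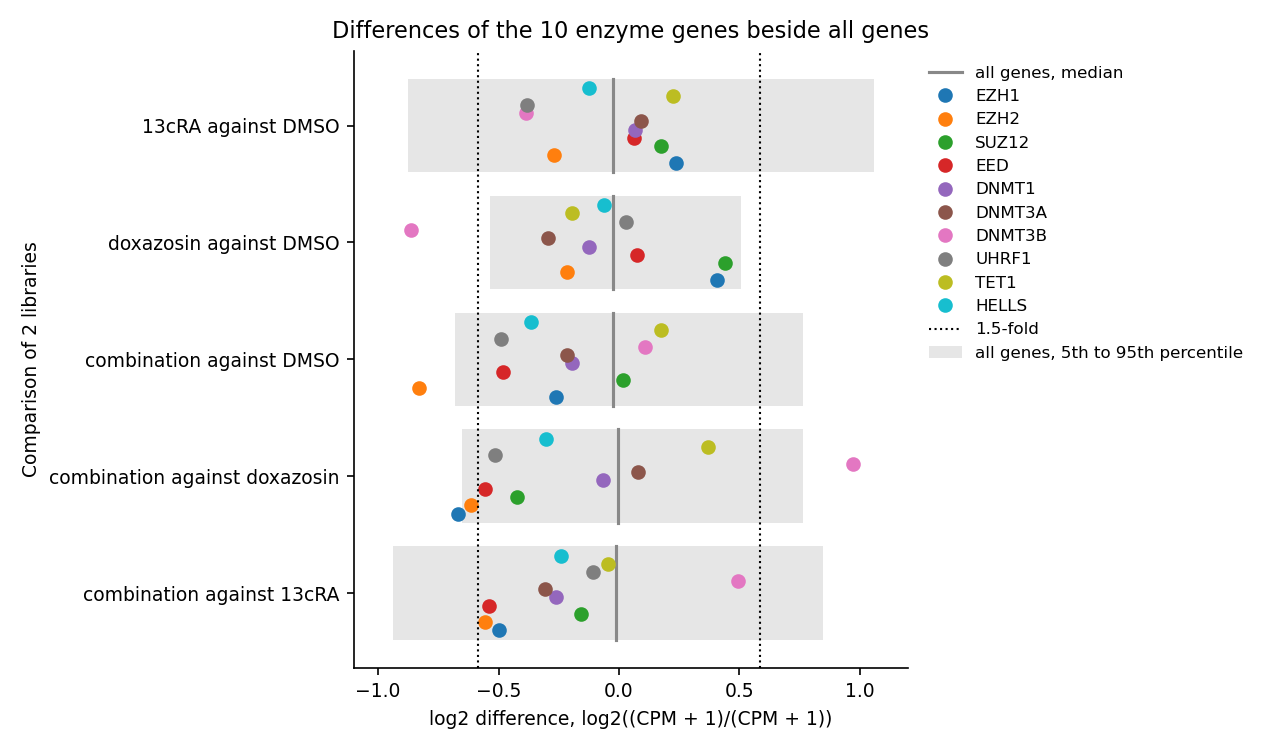
Log2 differences of the 10 genes in the 5 comparisons of libraries (rows), with the 5th to 95th percentile of 9573 genes in grey, their median as a line and 1.5-fold dotted. EZH2 (-0.83, combination against DMSO) and DNMT3B (-0.86, doxazosin against DMSO) lie outside the grey band of their rows, and for 13cRA against DMSO all 10 genes lie inside it.

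Sorted by drug instead of by pair of libraries, 3 genes (EZH2, UHRF1 and HELLS) had both libraries with 13cRA below both without it, as did 22.5% of all genes, and 1 (TET1) had both above, as did 20.9%. For doxazosin, 2 genes (DNMT1 and DNMT3A) had both libraries with the drug below both without it, as did 19.5% of all genes, and 0 had both above, against 15.7%. Under TMM scaling 7 of the 10 genes (EZH1, EZH2, SUZ12, EED, DNMT1, UHRF1 and HELLS) had both libraries with 13cRA lower, against 33.7% of all genes, and under DESeq2 scaling the same 7 against 36.7%. TET1 and DNMT1 were no longer separated by a drug in those directions under either scaling, and DNMT3A was separated under DESeq2 scaling only. EZH2, UHRF1 and HELLS were lower in both libraries with 13cRA under all 3 scalings, but not under every other alternative. The order held for these genes with all cells and with a total without mitochondrially encoded genes. Without the top cells EZH2 was at 72.7 CPM in 13cRA and 71.0 CPM in doxazosin, and with CPM averaged over cells at 86.6 and 83.0 CPM. In cells called G2M, UHRF1 was at 26.3 CPM in 13cRA and 23.0 CPM in DMSO. HELLS was there at 70.8 CPM in 13cRA and 70.7 CPM in doxazosin. Among cells of 34000 to 120000 counts the order failed for all 3 genes. EZH2 was at 87.9 CPM in 13cRA and 84.4 CPM in doxazosin. UHRF1 was at 34.0 CPM in 13cRA and 31.9 CPM in DMSO. HELLS was at 79.1 CPM in the combination and 68.5 CPM in doxazosin. At an equal 34000 counts per cell EZH2 was at 83.6 CPM in 13cRA and 78.8 CPM in doxazosin. In cells called S it was at 127 CPM in 13cRA and 103 CPM in DMSO. UHRF1 and HELLS kept the order in both of these settings.

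The share of cells in which a gene was detected was compared at 34000 counts per cell, which 328 DMSO, 249 13cRA, 235 doxazosin and 270 combination cells reached. EZH2 was detected in 76.2% of DMSO cells (95% Clopper-Pearson interval 71.2% to 80.7%), 55.4% of 13cRA cells (49.0% to 61.7%), 72.3% of doxazosin cells (66.1% to 78%) and 59.6% of combination cells (53.5% to 65.5%). The libraries with 13cRA were thus below those without it, with intervals that did not overlap. Without thinning, the EZH2 shares were 84.1%, 60.4%, 87.9% and 74.6%. The whole 13cRA library had lower shares: over 6986 genes detected in at least 20% of thinned cells on average, the median difference from DMSO was -10.8 percentage points, and EZH2 at -20.8 points lay at percentile 15.5. Between the combination and doxazosin, where the median was -1.0 points, EZH2 differed by -12.7 points (percentile 2.5) and UHRF1 by -11.4 points (percentile 3.5), while SUZ12 differed by -1.0 points and DNMT3A by -0.4 points. Between the combination and DMSO, EZH2 differed by -16.6 points (percentile 0.9), against a median of -0.4 points.

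UHRF1 was detected in 48.8%, 38.6%, 54.0% and 42.6% of DMSO, 13cRA, doxazosin and combination cells, and HELLS in 74.4%, 51.4%, 70.2% and 66.7%. DNMT1 was the most widely detected, in 92.4%, 79.1%, 87.7% and 84.8% of cells. SUZ12 was detected in 64.0%, 55.4%, 67.7% and 66.7%, and EED in 44.2%, 32.5%, 47.2% and 44.1%. The combination and DMSO thus differed by -0.1 points in their share of EED-positive cells. DNMT3A was detected in 75.9%, 65.1%, 71.9% and 71.5%, and TET1 in 44.2%, 39.0%, 44.3% and 46.3%. EZH1 (30.5%, 18.5%, 22.6% and 24.1%) and DNMT3B (12.5%, 8.0%, 8.5% and 10.7%) were found in the fewest cells. For EZH1, DNMT1, DNMT3A, SUZ12, EED and TET1 the 13cRA library had a higher summed level than DMSO and a smaller share of cells, so no order is read from their shares. Share and level also ran in opposite directions for every gene but DNMT3B between the combination and 13cRA, for DNMT3A and EZH1 between the combination and doxazosin, for EZH1 and TET1 between doxazosin and DMSO, and for DNMT3B between the combination and DMSO, and no order is read there either. A cell held a mean of 5.63 of the 10 genes in DMSO (SD 1.54 over cells), 4.43 in 13cRA (SD 1.75), 5.46 in doxazosin (SD 1.72) and 5.17 in the combination (SD 1.68).

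**Figure D3:**
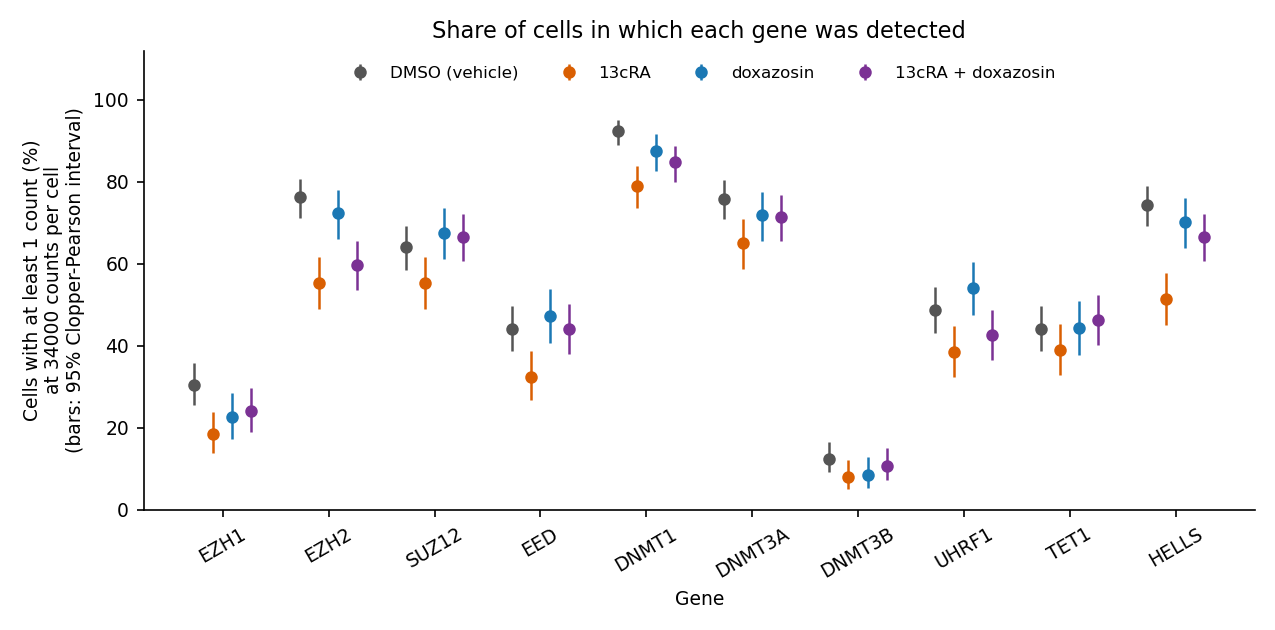
Share of cells with at least 1 count of each gene after thinning every cell to 34000 counts, with exact 95% Clopper-Pearson intervals. For EZH2 the 13cRA (55.4%) and combination (59.6%) libraries lie below DMSO (76.2%) and doxazosin (72.3%). The 13cRA library is the lowest for all 10 genes, as its median difference from DMSO over all genes is -10.8 points.

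Within each library the genes differed in how they followed the cell cycle. A per-cell S phase score was made from 41 replication genes and phases were called with 54 G2M genes, with the 10 genes left out of both lists, since UHRF1 and HELLS are commonly used S phase markers. The mean Pearson r with the S score over the 4 libraries was 0.39 for HELLS, 0.34 for EZH2, 0.31 for UHRF1, 0.29 for DNMT1, 0.22 for SUZ12 and 0.22 for EED. For TET1 it was 0.07, for DNMT3B 0.04, for DNMT3A -0.04 and for EZH1 -0.06. Each of these genes had both signs among the libraries, and DNMT3A ran from -0.20 in DMSO to 0.08 in doxazosin. The 6 genes of the first set had a positive r in each library, the lowest being 0.15 (EED in DMSO). These are descriptions across 328 DMSO, 249 13cRA, 235 doxazosin and 270 combination cells that share a library and a thinned depth. The E2F words printed above were present for 5 of these 6 genes, EED lacking them, and also for EZH1, whose r was the lowest. With the G2M score, DNMT3B had a mean r of 0.21, EZH2 0.22, DNMT1 0.21, HELLS 0.20 and UHRF1 0.05.

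**Figure D4:**
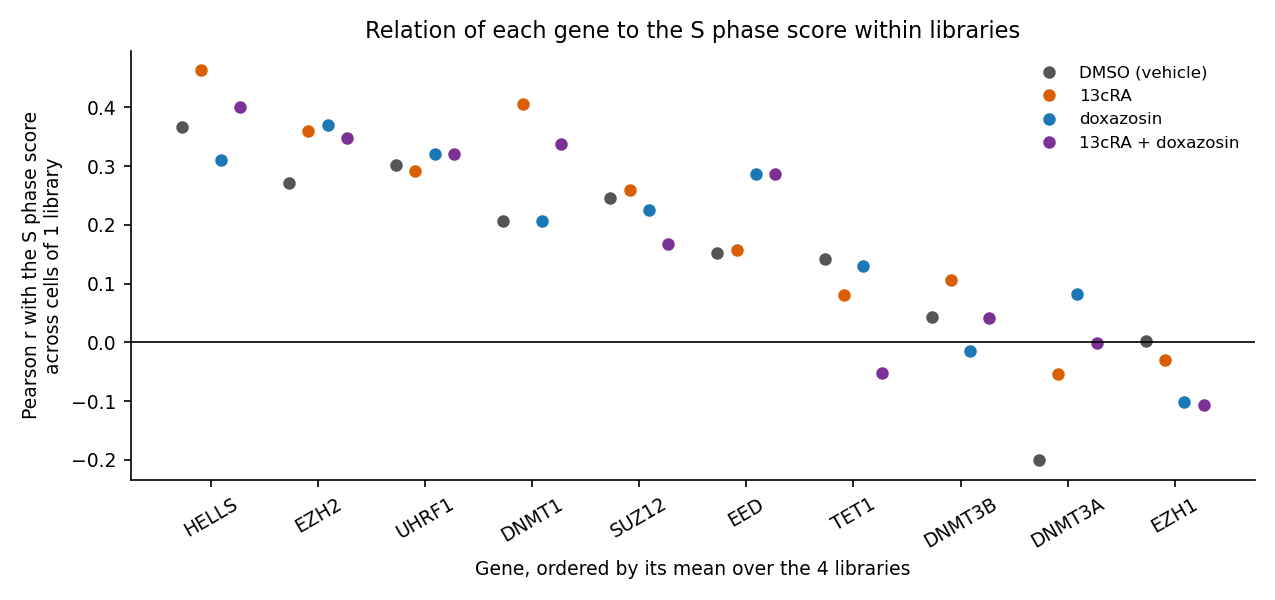
Pearson r between each gene and the S phase score across thinned cells, 1 point per library, ordered by the mean. HELLS, EZH2, UHRF1, DNMT1, SUZ12 and EED have 4 positive points each. DNMT3A runs from -0.20 in DMSO to 0.08 in doxazosin, and EZH1 from -0.11 in the combination to 0.003 in DMSO.

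UHRF1 showed the clearest phase difference. In cells called S against cells called G2M its level was 48.3 and 23.0 CPM in DMSO, 45.4 and 26.3 CPM in 13cRA, 65.8 and 25.2 CPM in doxazosin, and 38.2 and 19.7 CPM in the combination. HELLS was also higher in S than in G2M cells of each library (99.2 and 73.3 CPM in DMSO, 77.7 and 68.8 CPM in the combination). DNMT1 was not ordered in one way: 138 CPM in S and 152 CPM in G2M cells of DMSO, but 190.0 and 145 CPM in 13cRA. DNMT3A was lower in S than in G2M cells of DMSO (68.9 and 93.9 CPM) and of the combination (64.5 and 75.8 CPM), but not of 13cRA (90.2 and 87.6 CPM) or doxazosin (74.9 and 71.1 CPM). In cells called G1, which numbered 9 to 24 per library, HELLS was at 9.80 to 19.6 CPM and UHRF1 at 6.54 to 11.8 CPM, from 2 to 11 counts.

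The share of cells called S moved with the libraries: 38.4% of DMSO and 35.7% of doxazosin cells, against 18.5% of 13cRA and 24.8% of combination cells, and in that order 58.8%, 60%, 71.9% and 67.4% were called G2M. The 42 measured genes of the full S phase list, UHRF1 and HELLS among them, had a median log2 difference of -0.64 for 13cRA against DMSO and -0.28 for the combination against doxazosin. EZH2, UHRF1 and HELLS were lower in the same libraries, and the part of these shares in their levels was not tested beyond the values within a phase. Among cells called S, EZH2 was at 103 CPM in DMSO, 127 CPM in 13cRA, 87.5 CPM in doxazosin and 64.5 CPM in the combination, and among cells called G2M at 88.5, 77.2, 77.8 and 64.5 CPM. In each of these phases the combination was the lowest library for EZH2, and in S cells 13cRA alone was above DMSO. UHRF1 within S cells was at 48.3 CPM in DMSO and 45.4 CPM in 13cRA, closer together than over all cells, while doxazosin (65.8 CPM) and the combination (38.2 CPM) lay further apart, with a log2 difference of -0.77 against -0.52 over all cells. Within G2M cells UHRF1 was higher in 13cRA (26.3 CPM) than in DMSO (23.0 CPM), and lower in the combination (19.7 CPM) than in doxazosin (25.2 CPM).

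**Figure D5:**
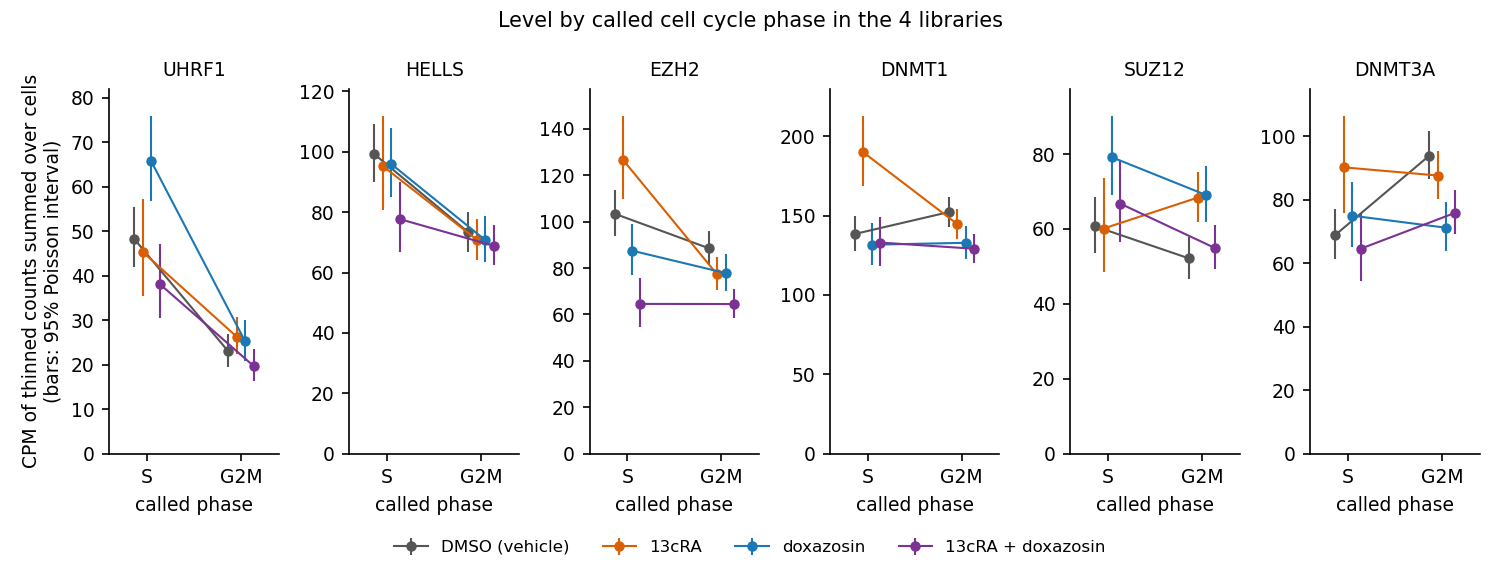
Level of 6 of the genes in cells called S or G2M in each library, as CPM of thinned counts with exact 95% Poisson intervals (axes start at 0 and differ between panels). UHRF1 and HELLS are higher in S cells of all 4 libraries, and the combination is the lowest for EZH2 in both phases (64.5 CPM).

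The likeness search covered 5916 genes, 8 of the 10 genes among them. The non-member genes most like each member across cells were taken by the mean within-library r. For EZH2 they were RRM2 (0.27), DNAJC9 (0.26) and MCM3 (0.25), for HELLS RRM2 (0.34), MCM4 (0.29) and MCM3 (0.29), for UHRF1 MCM6 (0.26), MCM3 (0.24) and MCM5 (0.24), and for DNMT1 MCM7 (0.27), MCM3 (0.26) and TK1 (0.24). SUZ12 was most like USP1 (0.23), NCAPH (0.20) and DEK (0.19), and EED most like ZWINT (0.18), TK1 (0.18) and RRM2 (0.16). DNMT3A was most like SOX11 (0.17), NORAD (0.16) and CSNK1D (0.15), and TET1 most like ACYP1, MRPL14 and MEAF6 (0.13 to 0.14). EZH1 and DNMT3B were detected in too few cells for this search. Between the 10 genes themselves, the highest mean r were 0.18 for UHRF1 with HELLS, 0.16 for DNMT1 with HELLS and 0.14 for EZH2 with HELLS.

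The other genes of the 2 systems are given from lists, with counts past 1.5-fold for 13cRA against DMSO unless said otherwise. For these genes, values without the top cells leave out only the gene's own counts in its top cell of each library. Of 9 measured cofactors of Polycomb repressive complex 2, 3 were higher (all genes 14.4%) and 1 lower (13.2%). Under TMM scaling 2 were higher (all genes 6.88%) and 3 lower (32.2%), and under DESeq2 scaling 2 were higher (7.48%) and 3 lower (29.4%). JARID2, a DNA-binding cofactor, was at 83.1 CPM in DMSO, 177 CPM in 13cRA, 73.8 CPM in doxazosin and 101 CPM in the combination, and PHF1 at 8.18, 24.3, 7.19 and 8.24 CPM. EPOP had a log2 difference of 0.66. Without the top cells EPOP was at 9.76 CPM in DMSO and 13.8 CPM in 13cRA, short of 1.5-fold. RBBP7, a histone chaperone of the complex, was at 158, 94.1, 156 and 108 CPM, lower in both libraries with 13cRA. The cofactors were mixed in direction, with a median of 0.18, which was -0.15 under TMM scaling.

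Polycomb repressive complex 1 reads H3K27me3 and ubiquitinates histone H2A. Of its 21 measured subunits, 3 were higher (all genes 14.4%) and 3 lower (13.2%), with a median of 0.08 (-0.23 under TMM scaling). PHC3 (0.89) and PHC2 (0.66) were among the higher and PCGF2 (-0.88) and RNF2 (-0.66), the catalytic ubiquitin ligase, among the lower. Under TMM scaling 1 subunit was higher (all genes 6.88%) and 3 lower (32.2%). Under DESeq2 scaling 1 was higher (7.48%) and 3 lower (29.4%). RNF2 was at 28.0 CPM in DMSO, 17.3 CPM in 13cRA, 40.7 CPM in doxazosin and 29.5 CPM in the combination. Of 7 genes that erase Polycomb marks, all 7 had a log2 difference above 0, as did 4634 of all 9573 genes, with a median of 0.33, and 1 passed 1.5-fold, KDM6B, an H3K27 demethylase. It was at 3.49 CPM in DMSO and 10.7 CPM in 13cRA, but a single cell held 62.8% of its 13cRA counts. Without its counts in the top cell of each library the levels were 3.28 and 3.98 CPM. The related demethylase KDM6A was at 7.97 CPM in DMSO and 10.4 CPM in 13cRA. Under TMM scaling the median of the 7 was 0.01, and 4 of them lay above 0.

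Of 8 measured partners of DNA methylation, 0 were higher (all genes 14.4%) and 3 lower (13.2%), with a median of -0.22. Under TMM scaling 4 were lower, against 32.2% of all genes, and the median was -0.54. MAT2A, which makes the methyl donor S-adenosylmethionine, was at 225 CPM in DMSO, 109 CPM in 13cRA, 223 CPM in doxazosin and 163 CPM in the combination. CDCA7, which recruits HELLS to chromatin, was at 58.2, 30.4, 52.0 and 44.5 CPM, and PCNA, the replication clamp that holds DNMT1, at 194, 117, 238 and 168 CPM. All 3 were lower in both libraries with 13cRA than in both without it, the order also seen for UHRF1 and HELLS, and CDCA7 and PCNA belong to the S phase list too. AHCY, which clears the product of methyl transfer, had a log2 difference of -0.41.

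Of 6 measured genes of DNA demethylation and repair, 1 was higher (all genes 14.4%) and 0 lower (13.2%). SMUG1, a uracil and hydroxymethyluracil glycosylase, was at 64.4 CPM in DMSO and 105 CPM in 13cRA, or 63.2 and 77.0 CPM without the top cells. It did not pass under TMM or DESeq2 scaling, where 2 genes of this list were lower (all genes 32.2% and 29.4%). TET3 had a log2 difference of -0.46, TDG of 0.25 and IDH2, which makes the TET cofactor 2-oxoglutarate, of -0.54. IDH2 was at 116 CPM in DMSO, 79.5 CPM in 13cRA, 73.8 CPM in doxazosin and 59.8 CPM in the combination. Of 7 measured readers of methylated CpG, 2 were higher (all genes 14.4%) and 0 lower (13.2%). The higher ones were MBD3 (34.0 CPM in DMSO and 61.5 CPM in 13cRA) and MBD2 (11.8 and 19.5 CPM). Under TMM scaling neither passed 1.5-fold. MBD3 was at 29.2 CPM in doxazosin and 39.1 CPM in the combination. ZBTB33 had a log2 difference of -0.24.

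Of 4 genes known to be silenced by EZH2 in neuroblastoma, 2 reached a mean of 5 CPM. CASZ1, a neural differentiation factor, was at 4.38 CPM in DMSO, 15.9 CPM in 13cRA, 6.80 CPM in doxazosin and 9.81 CPM in the combination, detected in 9.8%, 23.3%, 10.6% and 21.5% of thinned cells. CLU, a secreted chaperone, was at 2.60, 24.7, 5.24 and 9.06 CPM, but a single cell held 50.4% of its 13cRA counts, and without the top cells the levels were 2.16, 12.2, 4.18 and 6.80 CPM. Both genes were highest with 13cRA alone, where EZH2 was at 77.7 CPM, while EZH2 was lowest in the combination. These are RNA levels of single libraries, and a relation between EZH2 and the 2 genes was not tested. NGFR (0.21 CPM in DMSO and 1.99 CPM in 13cRA) and RUNX3 (1.49 and 0.80 CPM) were under the minimum.

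Of 16 germline genes that DNA methylation keeps silent in most somatic cells, 2 were measured. GAGE1, one of a family of near-identical copies whose reads may be split, was at 115 CPM in DMSO and 126 to 158 CPM in the treated libraries. PAGE1 was at 98.7 CPM in DMSO, 108 CPM in 13cRA, 52.2 CPM in doxazosin and 41.9 CPM in the combination, a log2 difference of -0.91 for doxazosin against DMSO and -1.34 for the combination against 13cRA. In the same order of libraries, PAGE1 was detected in 25%, 18.9%, 22.6% and 18.1% of thinned cells. Without the top cells its levels were 93.9, 95.4, 46.1 and 37.3 CPM. The other 14 genes, among them DAZL, SYCP3 and MAGEA4, had at most 1.55 CPM in any library.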

How the data were processed

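The deposited table gives whole-number read counts, not normalized and without molecular identifiers, of 60651 gene IDs in 1287 cells. The submitters' processing notes list the tools STAR 2.7.8a, featureCounts, fastp 0.23.3, bcl2fastq and Seurat 4.3.0. They list GRCh37 as well as GRCh38.p13, and do not say which was used for what. The gene annotation, whether counting used strand and how it treated shared reads were not given in the sources used here. Of the IDs, 60437 matched a symbol, and 38152 carry the same version in GENCODE 29, from which positions and exon lengths were taken.

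From these counts, cells with at least 500 genes and at most 25% mitochondrially encoded counts were kept (1197 cells, 90 left out). No doublet caller was run, because the labels' protocol says that wells with single live cells were picked by imaging. Cell columns are named by treatment and a number, so shared well barcodes were not counted. Counts were summed per library and scaled to CPM, with a pseudocount of 1 CPM for log2 differences and 1.5-fold as the size called. Levels have exact Poisson and shares exact Clopper-Pearson intervals at 95%. For shares, phases and correlations each cell was thinned to 34000 counts (seed 1), which left out 69 cells of 13cRA, 25 of DMSO, 17 of the combination and 4 of doxazosin as too shallow. Phases came from scanpy 1.11.5, and values for correlations are log2 of CPM divided by 10, plus 1. Thinning and intervals were tested on simulated data. With 1 sample per treatment no p-value was computed, in any comparison.

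The 10 genes and all gene lists were chosen with earlier results of these data known. All 10 genes are named, and from each list up to 4 genes with the largest absolute difference of 13cRA against DMSO among those with a mean of at least 5 CPM over the 4 libraries, plus genes under that minimum where the text says so. A few more genes of the lists were named after their values were seen: NGFR, RUNX3, DAZL, SYCP3 and MAGEA4, and the markers. The alternatives were edgeR 4.0.16 TMM factors, DESeq2 1.42.0 size factors, a total without mitochondrially encoded genes, a pseudocount of 5 CPM, all cells, CPM averaged over cells, at least 2000 genes per cell, thinned cells, cells called S or G2M, cells of 34000 to 120000 counts, no minimum for the genes compared with, and leaving out the top cell of each gene.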

Additional observations from a re-analysis of the deposited data

Results flagged for a closer look

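EZH1 differed from its control in opposite directions with 13cRA, depending on the other drug: the log2 difference was 0.24 for 13cRA against DMSO and -0.67 for the combination against doxazosin, a gap of -0.91. DNMT3B did so for both drugs. With 13cRA its log2 difference was -0.39 without doxazosin and 0.97 with it, and with doxazosin it was -0.86 without 13cRA and 0.49 with it, a gap of 1.36 in either case. Each value compares 1 library with 1 other, and the gaps were not tested. EZH1 and DNMT3B had the fewest positive cells of the 10 genes, and a single cell held 34.0% of the EZH1 counts with doxazosin and 28.3% of the DNMT3B counts with both drugs.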

How the results depend on the processing

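Over 13 alternatives, 18 of the 50 differences (10 genes in 5 comparisons) kept their sign throughout, among them EZH2 for the combination against DMSO, doxazosin and 13cRA. Dropping the minimum for all genes and using a pseudocount of 5 CPM could not change any of these signs. Of 650 values, 254 moved by more than the counting interval. The median of the 10 genes for the combination against 13cRA was -0.25, and was 0.061 under TMM scaling and -0.0084 under DESeq2 scaling, while relative to all genes it stayed between -0.31 and -0.19. The median for 13cRA against DMSO was 0.06 and ran from -0.26 (TMM) to 0.11. That for the combination against DMSO ran from -0.34 to -0.17, and that for the combination against doxazosin from -0.46 to 0.06, the last among cells of 34000 to 120000 counts, of which the libraries held 141, 203, 58 and 38. Among those cells the differences of the combination from doxazosin reversed for EZH1 (0.18 in place of -0.67) and DNMT3B (-0.025 in place of 0.97), and the cause was not tested. Of 40 shares, 30 lay outside their thinned interval without thinning. Leaving out the top cell was chosen after seeing the data. For the levels of the 10 genes it removed the whole cell, and for genes of the lists only the gene's own counts in that cell. No paired analysis was possible because each treatment has 1 sample. The 13cRA library, with the fewest counts, limits the comparisons that use it, and no replicate error is known for any value.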
